A study of Mus musculus with 2 samples.

Results

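Neurons hold microglia in check, and keep them alive, through a small set of membrane and secreted proteins, and 6 genes of this kind were followed here: Cd47, Sirpa, Cd200, Cx3cl1, Il34 and Csf1. They were chosen by name, with their reads in these libraries already known, and each is described from every model that carries its gene name, 6 of the 18534 annotated genes with a read. All 6 had reads in both libraries, 1432 reads in replicate 1 and 1289 in replicate 2. RNA of the left cerebral cortex was sequenced as long reads, each of which can show how the exons of a molecule were joined. The only group was B6CASTF1/J, adult mice 18 to 20 months old, an F1 hybrid of C57BL/6 and wild-derived CAST mice, with 2 µg of RNA per library and no treatment or altered gene named. The group held 2 libraries, numbered as biological replicates 1 and 2, which share a donor entry, and no label says that they came from separate animals or whether animals were pooled. The sex label and the source name say female, whereas the free description says male.

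CD47, on neurons and most other cells, binds SIRPA, an inhibitory receptor of phagocytes that is also abundant on neurons, and so lowers engulfment. CD200 on neurons binds its receptor on myeloid cells, and the chemokine CX3CL1, membrane-bound or shed, binds CX3CR1 on microglia. IL34, made by forebrain neurons, and CSF1 both bind CSF1R, on whose signal microglia depend for survival.

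Several of these genes differ in their messages by short exons, and the sequences on which the results turn are shown first. They are from the GENCODE M21 transcripts on mm10, whose exons matched the deposited exons for 21 of the 21 annotated transcripts of these genes with reads. The Cd47 tails run from the exon of 32 nt, which follows the last membrane-spanning exon, through the stop codon (chr16:49906781-49910877 for the short tail and chr16:49906781-49910873 for the others, plus strand). Capitals mark the exons of 25 and 33 nt that the short tail lacks.
Cd47 short tail: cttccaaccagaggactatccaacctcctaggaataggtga
Cd47 middle tail: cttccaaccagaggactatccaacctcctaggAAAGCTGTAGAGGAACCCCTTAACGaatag
Cd47 long tail: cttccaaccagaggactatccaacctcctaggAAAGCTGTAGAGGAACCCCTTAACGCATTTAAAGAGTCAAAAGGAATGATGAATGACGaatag
The tails hold 38, 59 and 92 coding nt before the stop codon, so that the long form adds the most to the inner end of the protein. A further exon of 45 nt (chr16:49899856-49899900) can lie before the exon of 32 nt. Read in the frame of the exons before it, it holds a stop codon at its nt 27 to 29, so this form does not code through the exon of 32 nt, and GENCODE gives its transcript, Cd47-210, no coding sequence. In addition, an exon of 63 nt (chr16:49869018-49869080) lies after the exon that codes for most of the immunoglobulin domain.
Cd47 45-nt exon: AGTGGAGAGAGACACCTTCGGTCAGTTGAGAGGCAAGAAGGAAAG
Cd47 63-nt exon: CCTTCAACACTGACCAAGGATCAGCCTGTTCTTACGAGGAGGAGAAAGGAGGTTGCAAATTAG

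Sirpa and Il34 each use alternative splice sites that change their coding sequence by a few bases in frame. In Sirpa the exon before the last ends 40 nt or 52 nt after its start (chr2:129627946-129627985 or chr2:129627946-129627997, plus strand), and capitals mark the 12 nt of difference.
Sirpa exon 7, short: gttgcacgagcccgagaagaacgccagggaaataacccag
Sirpa exon 7, long: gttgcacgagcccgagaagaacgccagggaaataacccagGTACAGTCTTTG
In Il34 the junction of exons 4 and 5 (within chr8:110748387-110748677, minus strand) includes or leaves out 3 nt, in capitals, which form a whole codon since 28, 134 and 78 coding nt precede them.
Il34 exon 5 start: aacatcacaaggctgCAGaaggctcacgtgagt
The first exon of Cx3cl1 was found joined to its own second exon and, in a few reads, to the second exon of Ccl17, a chemokine gene farther along the chromosome. In both junctions (starting at chr8:94772305, plus strand) lower case is the end of the first Cx3cl1 exon and capitals are the exon joined to it.
Cx3cl1 exon 1 joined to Cx3cl1 exon 2: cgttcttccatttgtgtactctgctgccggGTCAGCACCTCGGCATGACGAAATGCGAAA
Cx3cl1 exon 1 joined to Ccl17 exon 2: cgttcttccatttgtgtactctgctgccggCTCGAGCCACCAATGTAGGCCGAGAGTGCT

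The libraries held 871524 and 839150 reads, of which 774629 (88.9%) and 679147 (80.9%) fell on annotated genes, the total behind each CPM (reads scaled to a total of 1000000 on annotated genes). A long read counts 1 molecule, so levels were not divided by length; how well long and short molecules are recovered was not tested, and model lengths are given beside the levels. A count of 0 allows up to 3.87 CPM in replicate 1 and 4.42 CPM in replicate 2. These limits, and the 95% Wilson intervals given for shares, cover counting error only. SDs are over the 2 libraries and may be technical.

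Cx3cl1 was by far the most abundant of the 6, followed by Sirpa and Cd47. Cd200 and Il34 were lower, and Csf1 was at the edge of detection. In replicate 1 Cx3cl1 had 749 reads (967 CPM) and in replicate 2 it had 643 (947 CPM), a mean of 957 ± 14.2 CPM (SD, n = 2) and rank 92 of 18534 genes. Sirpa had 291 reads (376 CPM) and 304 (448 CPM), a mean of 412 ± 50.9 CPM and rank 340. Cd47 had 225 reads (290 CPM) and 218 (321 CPM), a mean of 306 ± 21.6 CPM and rank 542. These 3 genes thus lay among the upper ranks. The pair of values of each gene lay apart from those of the other 2, a comparison that leaves out counting error.

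Cd200 had 108 reads (139 CPM) and 85 (125 CPM), a mean of 132 ± 10.1 CPM (SD, n = 2) and rank 1674. Il34 had 53 reads (68.4 CPM) and 34 (50.1 CPM), a mean of 59.2 ± 13.0 CPM and rank 3842. Csf1, the other ligand of the same receptor, had 6 reads (7.75 CPM) and 5 (7.36 CPM), a mean of 7.55 ± 0.271 CPM and rank 10858. Within each library the order was the same. No gene had a pair of values that overlapped the pair of the next gene, counting error left aside. The order was the same in 8 of the 8 settings of models, scaling or library in which it was computed, by the mean wherever both libraries entered. With annotated transcripts only, the means of Il34 and Csf1 were close (5.81 and 5.25 CPM), and under that setting Csf1 was above Il34 within replicate 2 (8.68 and 4.34 CPM). Weighted by reads, the median model length was 3315 nt for Cx3cl1, 3982 nt for Sirpa, 1316 nt for Cd47 and 2347 nt for Cd200 in both libraries, 2432 and 2297 nt for Il34, and 3226 and 4176 nt for Csf1.

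**Figure D1:**
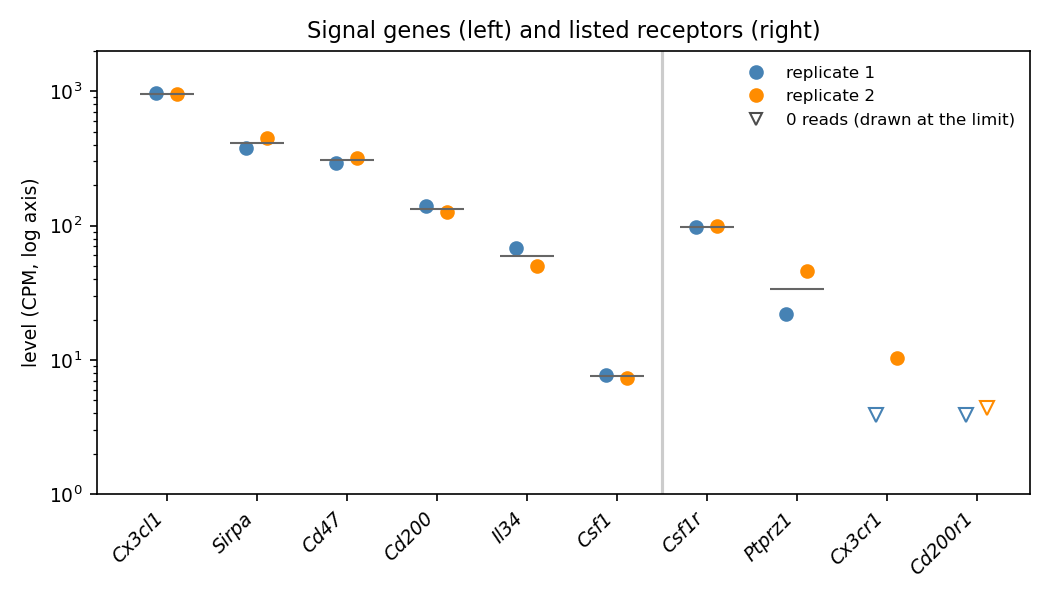
Level of the 6 signal genes (left of the line) and of 4 listed receptors (right) in CPM on a log axis; points are the 2 libraries, bars their mean, and open triangles stand for 0 reads, drawn at the limit a count of 0 allows. Cx3cl1 lies near 957 CPM and Csf1 near 7.55 CPM, and Cd200r1 had 0 reads in both libraries.

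The genes lie on 4 chromosomes in mm10. Cx3cl1 spans chr8:94772009-94782427 (plus strand) and Il34 spans chr8:110741829-110805924 (minus strand). Cd47 spans chr16:49800533-49915010 (plus strand) and Cd200 spans chr16:45382135-45409053 (minus strand). Sirpa spans chr2:129592835-129632228 (plus strand) and Csf1 spans chr3:107741048-107760469 (minus strand).

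None of the 5 genes with enough reads passed the test for a difference between the libraries. By the exact binomial test with Benjamini-Hochberg adjustment, which compares the libraries as sequenced and not conditions, 0 of 5 were called, against 1.99% of all 9143 genes tested. At an unadjusted p under 0.05 there was 1 of the 5, Sirpa, and 1075 of all genes. Sirpa was higher in replicate 2 by a log2 ratio of 0.25 (counting SE 0.12, adjusted p = 0.347 by the exact test). Cd47 had a log2 ratio of 0.14 (SE 0.14) and Cx3cl1 of -0.03 (SE 0.08). Cd200 had -0.15 (SE 0.21) and Il34 -0.44 (SE 0.32). The median over the 5 was -0.03, beside 0.03 over all genes tested. Csf1 had too few reads for the test.

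Over the 2 libraries, the genes nearest in level to each of these genes, of 9143 compared on log2(CPM + 1), were Tspan3 and Serinc1 for Cx3cl1, Baiap2 and Serpine2 for Sirpa, and Pnmal2 and Ttc9b for Cd47. For Cd200 they were Ephb6 and Erh, and for Il34 Slc24a2 and Sh3glb1. Their distances from the gene ran from 0.00638 (Pnmal2) to 0.0662 (Serinc1), and with 2 libraries such a likeness describes the level only.

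Of the receptors listed apart from Sirpa, CSF1R had the most abundant message and that of the CD200 receptor was not detected at this depth. Csf1r had 75 and 67 reads, 97.7 ± 1.30 CPM (SD, n = 2), near Il34 and Cd200 in level. Ptprz1, a phosphatase of astrocytes and oligodendrocyte precursors that also binds IL34, had 17 and 31 reads, 33.8 ± 16.8 CPM, and did not pass the test (unadjusted p = 0.0139, exact binomial test). Cx3cr1, the receptor of the most abundant ligand, had 0 reads in replicate 1 and 7 in replicate 2. Of those 7 reads, 1 was spliced and 2 lay as a single exon within the span of the annotated receptor transcript with reads, intron included. The other 4 lay elsewhere in the annotated span of the gene.

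Cd200r1, the receptor of CD200, and its relatives Cd200r1l, Cd200r2, Cd200r3 and Cd200r4 had 0 reads in both libraries, as had Sirpb1a and Sirpb1b, close relatives of Sirpa. The other ligands of CD47 in the list were also few, with 0 and 1 read for Thbs1 and 3 and 2 reads for Thbs2. Syndecan-1 (Sdc1), a further binding partner of IL34, had 3 and 0 reads. Of these 13 receptors and ligands, 6 had a read and 2 were tested. In either direction 0 of the 2 passed, beside 1.99% called over all genes tested. In bulk tissue fewer cells of a type and less RNA per cell cannot be told apart.

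Markers of the cells on both sides of these signals were present. All 16 of 16 microglia markers had reads, with a summed level of 1091 CPM in each library. P2ry12 was at 58.0 ± 9.20 CPM (SD, n = 2) and Tmem119 at 64.4 ± 5.69 CPM. Cx3cr1 had the lowest mean of the list, through its 0 reads in replicate 1, whereas in replicate 2 it lay above Aif1. Markers of other brain macrophages summed to 9.04 and 5.89 CPM, with 4 of 5 detected and Ms4a7 at 0. Of 6 lymphocyte and neutrophil markers 1 had a read, summing to 0 and 1.47 CPM, with Cd3e and S100a8 at 0. Neuron markers summed to 7720 and 7162 CPM (10 of 10 detected), astrocyte markers to 3640 and 3783 CPM (6 of 6) and oligodendrocyte markers to 2151 and 1913 CPM (6 of 6). The sums were 52.9 and 85.4 CPM for oligodendrocyte precursors, 293 and 208 CPM for endothelium and 142 and 147 CPM for mural cells, each with 4 of 4 markers detected. Among all markers 3 were called between the libraries, each lower in replicate 2: the astrocyte filament gene Gfap (285 and 153 CPM), the endothelial gene Cldn5 (265 and 172 CPM) and the myelin gene Mbp (1490 and 1269 CPM). They were 1 of 6 astrocyte, 1 of 2 endothelial and 1 of 5 oligodendrocyte markers tested. None was called of 12 microglia, 2 precursor and 2 mural markers tested. Over all 9143 genes tested 1.99% were called, 115 higher and 67 lower in replicate 2. With annotated transcripts only, the calls of Cldn5 (adjusted p = 0.0791, exact binomial test) and Mbp (adjusted p = 0.148) were lost. Of the 10 neuron markers 0 were called, but 7 had an unadjusted p under 0.05 (exact binomial test), beside 11.8% of all genes tested. Neuron markers went both ways, with Slc17a7 at 1142 and 973 CPM and Camk2a at 174 and 244 CPM. The part of these differences in the values of the 6 genes was not tested.

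Cd47 messages mostly carried the long tail. Of the reads that span the tail, 189 of 223 in replicate 1 (84.8%, interval 79.5 to 88.9) and 176 of 215 in replicate 2 (81.9%, 76.2 to 86.4) joined the exons of 32, 25 and 33 nt, a mean of 83.3 ± 2.05% (SD, n = 2). The long-tailed protein is the form known from neurons. The short tail, with the exon of 32 nt alone, took 18 reads (8.07%) and 21 (9.77%). The exons of 45 and 32 nt together took 8 reads (3.59%) and 11 (5.12%), and both libraries thus gave the same order of these 3 forms, with intervals of the long tail far above the rest. The middle tail, with the exons of 32 and 25 nt, had 5 reads in replicate 1 (2.24%) and 0 of 215 in replicate 2. A tail without any of these exons had 1 read and 0, and other chains had 2 and 7 reads. The annotated last exon has 213 nt in Cd47-205, with the long tail, and 4142 nt in Cd47-201, with the short tail. Whether such a difference in length affected the shares was not tested.

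**Figure D2:**
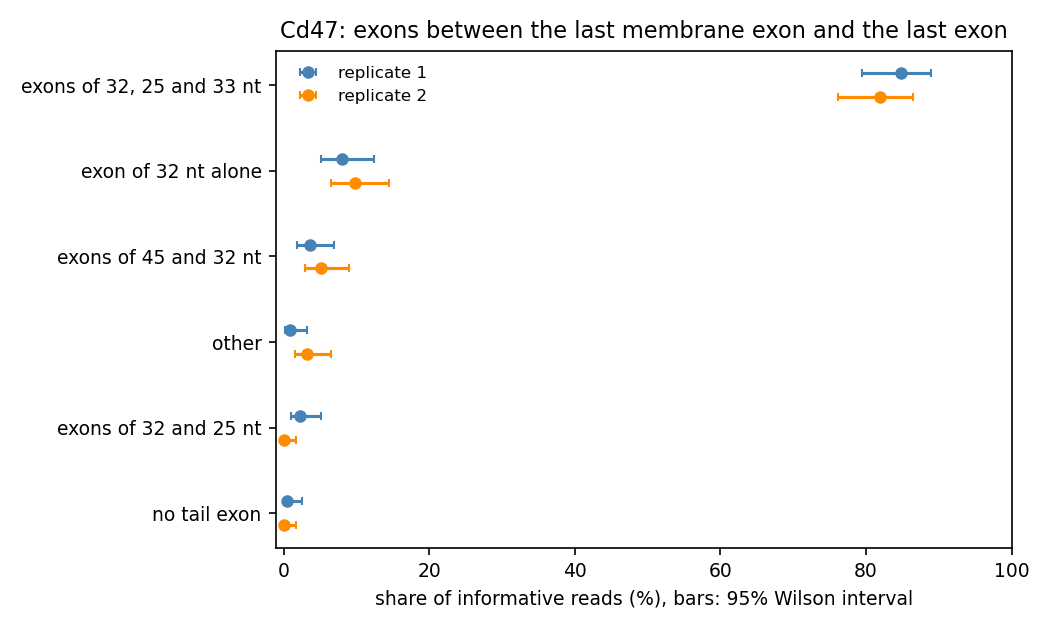
Share of Cd47 reads spanning the tail (223 and 215 reads) for each chain of exons between the last membrane-spanning exon and the last exon; points are the 2 libraries and bars the 95% Wilson interval of counting error. The long tail held 84.8% and 81.9%, and the short tail 8.07% and 9.77%.

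The share depended on the models counted, and with annotated transcripts alone the long tail held 94.3% of the tail reads. The short-tailed chain without the exon of 63 nt, a new combination of annotated splice sites, held 16 and 17 reads. By gene the transcripts were led by Cd47-205, with the long tail and without the exon of 63 nt, at 149 of 225 reads (66.2%, 59.8 to 72.1) and 148 of 218 (67.9%, 61.4 to 73.7). Cd47-208, with both the long tail and the exon of 63 nt, had 30 reads (13.3%) and 20 (9.17%). The libraries held 21 and 18 different Cd47 transcripts, 10 of them found in both.

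The exon of 63 nt was included in 34 of 214 reads (15.9%, 11.6 to 21.4) and 30 of 213 (14.1%, 10.05 to 19.4). On the same reads its inclusion can be set beside the tail. It was present in 51 of 356 reads with the long tail (14.3%, 11.1 to 18.3), 5 of 38 with the short tail (13.2%, 5.75 to 27.3) and 3 of 18 with the exons of 45 and 32 nt (16.7%, 5.84 to 39.2), so that the intervals overlap widely. Among reads that join the exon of 32 nt to the last exon, with or without the exon of 25 nt between them, 5 had that exon and 26 lacked it in replicate 1, and 0 had it and 32 lacked it in replicate 2. Fisher's exact test on exons with 20 or more informative reads in each library and 5% to 95% inclusion covered 2 exons of these genes, the Cd47 exons of 63 nt (unadjusted p = 0.685) and 25 nt (unadjusted p = 0.0242, adjusted p = 1). It called 0 of the 2, with 1 under an unadjusted p of 0.05. Over all exons it called 0 of 1520, a background of 0%, with 54 under an unadjusted p of 0.05.

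Sirpa messages mainly coded for all 3 immunoglobulin domains. The 3 exons of these domains were joined in 193 of 209 reads (92.3%, 87.9 to 95.2) and 213 of 235 (90.6%, 86.2 to 93.7). The first of them, which codes for the domain that binds CD47, was the only one in 12 reads (5.74%) and 12 reads (5.11%). A shortened first domain exon had 4 and 2 reads, the first and last of the 3 without the middle one 0 and 3, none of the 3 exons 0 and 2, and other chains 0 and 3. Before the first domain exon, an exon of 101 nt (chr2:129608133-129608233) was included by 0 reads and left out by 206 in replicate 1. In replicate 2 it was included by 1 read and left out by 229.

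The 12 nt before the last exon, in the part that codes for the inner side of the receptor, were included in 29 of 233 reads (12.4%, 8.81 to 17.3) and 29 of 254 (11.4%, 8.07 to 15.9). They were present in 48 of 406 reads with all 3 domain exons (11.8%) and in 2 of 24 with the first alone (8.33%, 2.32 to 25.8), so no link between the 2 choices was detectable at this depth. The exon of 25 nt, whose loss shifts the reading frame, was skipped in 4 of 230 reads (1.74%) and 7 of 252 (2.78%). An upstream first exon spliced to the exon of the start codon began 28 of 210 reads (13.3%, 9.39 to 18.6) and 32 of 235 (13.6%, 9.81 to 18.6). Sirpa-203 led with 150 of 291 reads (51.5%) and 157 of 304 (51.6%), and Sirpa-201, which has the 12 nt, had 17 and 20 reads. Sirpa had the most transcripts of the 6 genes, 24 and 29, with 16 in both libraries.

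**Figure D3:**
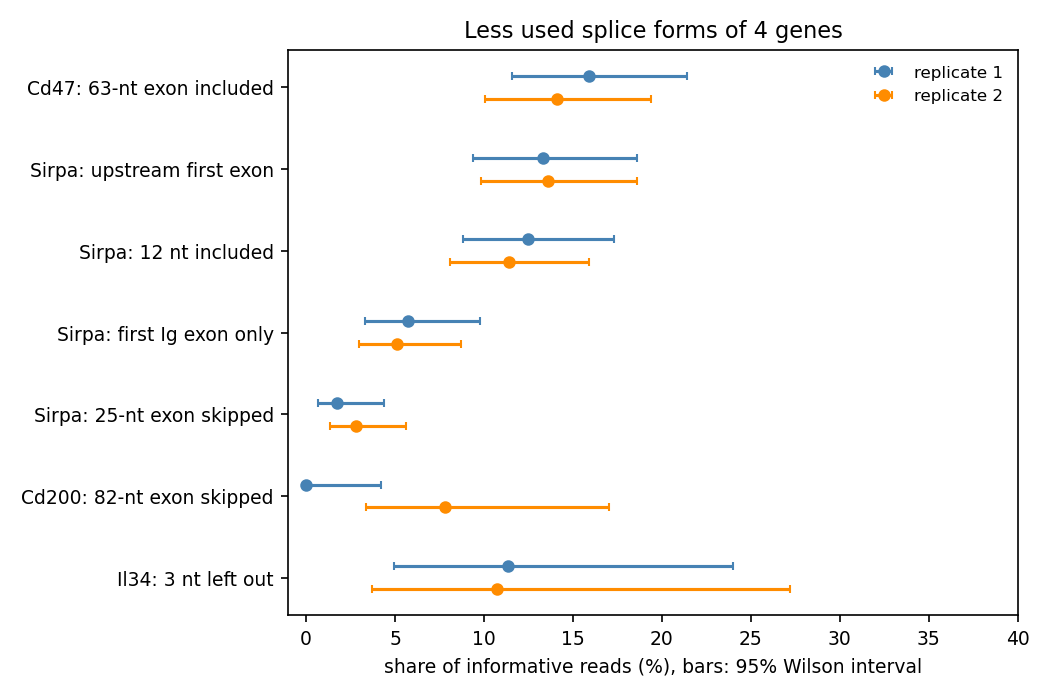
Share of informative reads with the less used form at 7 splice choices in Cd47, Sirpa, Cd200 and Il34; points are the 2 libraries and bars the 95% Wilson interval of counting error. The intervals of the libraries overlap at each choice, and skipping of the Cd200 exon of 82 nt had 0 reads in replicate 1 and 5 in replicate 2.

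Cd200 reads used a single splice site at the end of exon 5. The second exon, of 82 nt (chr16:45400222-45400303, minus strand), whose loss shifts the reading frame, was skipped in 0 of 88 reads in replicate 1 and 5 of 64 in replicate 2 (7.81%, 3.38 to 17.02). All 187 reads across the end of exon 5 used the site of Cd200-202, and 0 used that of Cd200-201, which allows a share of up to 1.60%. Between exons 4 and 5, an exon of 55 nt (chr16:45393523-45393577) was included by 0 reads and left out by 105 in replicate 1. In replicate 2 it was included by 1 read and left out by 84. Cd200-202 held 84 of 108 reads (77.8%, 69.1 to 84.6) and 58 of 85 (68.2%, 57.7 to 77.2). The next form, an incomplete match that begins in the third exon, had 11 and 18 reads. For skipping of the exon of 82 nt, the interval of the 0 in replicate 1 reaches 4.18% and overlaps that of replicate 2. That exon lay outside the range of inclusion tested.

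Il34 reads rarely reached the annotated first exon. Of the reads across the second exon, 40 of 44 in replicate 1 (90.9%, 78.8 to 96.4) and 24 of 28 in replicate 2 (85.7%, 68.5 to 94.3) began in it, and 4 and 4 were joined to the first exon. Model ends in these files sit on shared positions and are not read ends, so the true start of such a read is not known. The start codon lies in the second exon, so these models hold the whole coding sequence. The 3 nt at the start of exon 5 were left out in 5 of 44 reads (11.4%, 4.95 to 24.0) and 3 of 28 (10.7%, 3.71 to 27.2). An annotated intron was kept in 2 of 46 and 2 of 30 spliced reads. The extra exon of 118 nt in Il34-204 was in 0 of 74 reads, which allows a share of up to 4.05%. The leading chain, which begins in the second exon, held 33 of 53 reads (62.3%) and 21 of 34 (61.8%), and reads of annotated transcripts alone gave Il34 a level of 5.81 ± 2.07 CPM (SD, n = 2).

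Csf1 reads, 11 in all, carried the full-length exon 6 in 6 of 6 informative reads, the exon of 1016 nt that codes for the part by which the secreted form is released. The limit for the shortened exon is a share of 50%. The last exon was that of Csf1-201 in 9 of 9 reads, with a limit of 33.3% for the end used by Csf1-203. These counts describe a few molecules.

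Cx3cl1 had the largest share of single-exon reads of the 5 genes with 20 or more reads. Most of its spliced reads joined all 3 exons as annotated. The 3 exons were joined as in Cx3cl1-201 in 406 of 749 reads (54.2%, 50.6 to 57.7) and 347 of 643 (54.0%, 50.1 to 57.8). A single exon was read in 330 (44.1%, 40.5 to 47.6) and 284 reads (44.2%, 40.4 to 48.0), and 13 and 12 reads were spliced otherwise. The single-exon share was above that of 90.3% and 89.3% of genes with 20 or more reads, whose median was 4.76% and 5.26%. Of the single-exon reads, 330 of 330 and 283 of 284 lay on 1 model per library that ends at the annotated 3' end. It begins 78 nt inside the last exon in replicate 1 and 615 nt before it, in the intron, in replicate 2, and holds 2790 and 2868 nt of that exon of 2868 nt. Model ends are not read ends, so how far each of these reads reaches is not known. What these reads stem from was not tested.

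Of the other genes, Sirpa had a single-exon share of 19.9% and 16.4%, of which 57 and 50 reads lay on a model of its last exon. Il34 had 13.2% and 11.8%, on models beyond the end of its last exon, Cd200 had 3 and 0 reads, and Cd47 had 0.444% and 1.38%. Csf1 had 2 of 6 and 0 of 5. With models of more than 1 exon only, Cx3cl1 still led, at 615 ± 3.67 CPM (SD, n = 2).

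**Figure D4:**
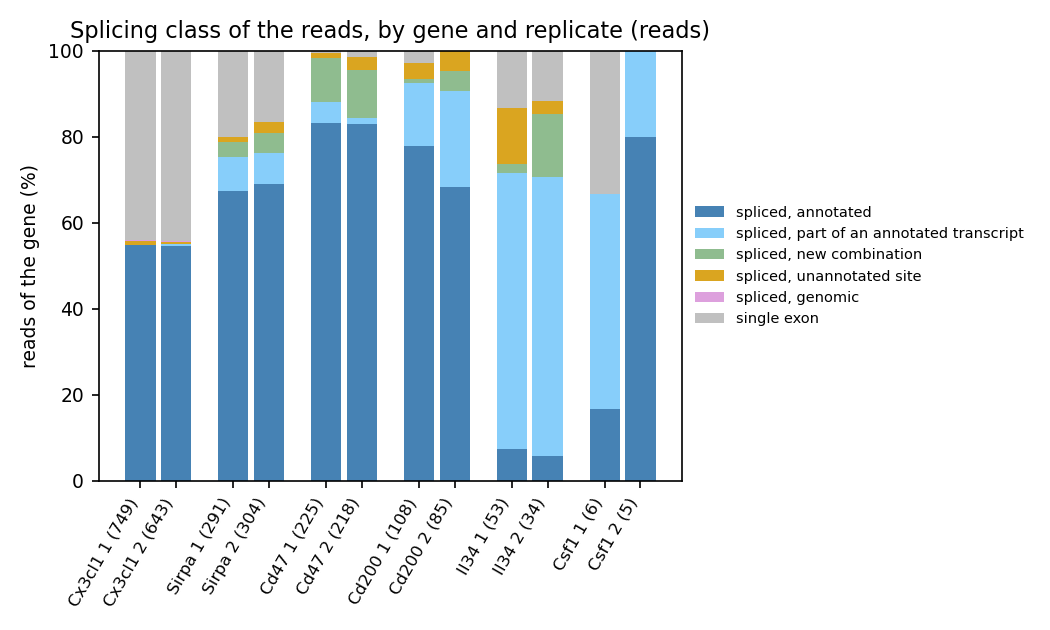
Reads of each gene in each library (read number in parentheses) as a percentage by splicing class, with single-exon models in grey. Single-exon models made up 44.1% and 44.2% of Cx3cl1 reads and 0.444% and 1.38% of Cd47 reads, and most Il34 reads matched part of an annotated transcript.

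None of the 5 testable genes passed the test for a difference between libraries in the share of its leading transcript. With Fisher's exact test, adjusted in the same way, 0 of 5 were called, and 0 had an unadjusted p under 0.05, against a background of 0.168% (10 of 5961 genes, 401 under an unadjusted p of 0.05). The lowest p of the 5 was that of Cd200 (unadjusted p = 0.143, exact test).

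Some reads that begin in Cx3cl1 were given to Ccl17, which is not one of the 6 genes and was singled out after its values were seen. Ccl17 (chr8:94810453-94812036, plus strand) starts 28.0 kb beyond the end of Cx3cl1. It had 8 and 3 reads, of which 10 of 11 begin with exons of Cx3cl1 and 0 use the first exon of Ccl17. In 8 of them (6 and 2) the first exon of Cx3cl1 was joined to the second exon of Ccl17, and in 2 (2 and 0) the first and second exons of Cx3cl1 were. These 10 reads made up 1.28% (0.698 to 2.34) of the 780 reads spliced from the first Cx3cl1 exon. The first exons of Cx3cl1 and Ccl17 hold 70 and 100 coding nt, which both leave 1 nt after whole codons, so the first kind of junction keeps the frame of Ccl17. The first 2 exons of Cx3cl1 hold 191 coding nt, which leave 2, and that junction does not keep it.

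Antisense models lay over Sirpa with 48 and 79 reads, 16.5 and 26.0 per 100 sense reads, none of them spliced. In both libraries they were in intron 1 (21 and 37 reads) and between exons 4 and 5 (26 and 42 reads). A further model, with 1 read of replicate 1, starts and ends at the same position (chr2:129630976) in the last exon. Cd47 had 28 and 26 antisense reads, 26 and 22 of them between the exon of 25 nt and the end of the gene. Cd200 had 0 and 1, and Cx3cl1, Il34 and Csf1 had 0 in both libraries. The orientation of reads is not given in the sources used here, so the strand of single-exon reads is uncertain. Model ends are not read ends, so the places given are those of models.

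Genes that act around the 6 were taken from lists by their role. Of 14 genes that signal below the receptors, 12 had a read and 7 were tested. In either direction 0 of the 7 passed, beside 1.99% called over all genes tested. The 14 genes were led by the kinase gene Akt1 at 324 ± 9.83 CPM (SD, n = 2). Next came the G protein gene Gnai2, through which chemokine receptors signal, at 181 ± 14.3 CPM, the adaptor gene Grb2 at 159 ± 12.5 CPM and Pik3r1 at 34.4 ± 0.700 CPM. Ptpn11, whose phosphatase docks on SIRPA, had 11 and 10 reads, and its blood-cell relative Ptpn6 had 2 and 2. Tyrobp, an adaptor of myeloid receptors, had 10 and 4 reads. The adaptor genes Dok1 and Fyb had 0 reads in both libraries. In the same list Dok2 had 0 and 1 read, and Rasa1 had 22 and 26.

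Of 8 genes that shed or modify these proteins, 8 had a read, 4 were tested and 0 passed, with 2 of the 4 under an unadjusted p of 0.05, beside 1.99% called and 11.8% under that unadjusted p over all genes tested. Bace1 was at 118 ± 26.5 CPM (SD, n = 2) and Ctss, a protease of microglia that can release CX3CL1, at 111 ± 29.6 CPM. Qpctl, whose enzyme modifies CD47 so that SIRPA can bind it, was at 46.6 ± 11.1 CPM. Adam10, the main sheddase of CX3CL1 in resting cells, was at 23.3 ± 1.73 CPM, and Adam17 had 7 and 10 reads.

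Of 36 genes of other signals between neurons and microglia, 34 had a read, 23 were tested and 0 passed, with 6 of the 23 under an unadjusted p of 0.05, beside the same 1.99% and 11.8% over all genes. Apoe led at 5638 ± 262 CPM (SD, n = 2), followed by the calsyntenin gene Clstn1 at 692 ± 73.0 CPM, Mfge8, a bridge for engulfment made by astrocytes, at 301 ± 13.4 CPM and the receptor gene Tyro3 at 201 ± 10.9 CPM. The median log2 ratio of the tested genes was -0.05 for these signals, -0.06 for the genes below the receptors and 0.16 for the shedding genes, beside 0.03 over all genes tested.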

How the data were processed

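For each of the 2 libraries the authors deposited whole read counts of transcript models, and the exons of these models in a separate annotation. The source column of the deposited annotation names TALON, and the assembly is mm10 per the labels. Which aligner and settings came before is not given in the sources used here. TALON classes a model as annotated, as part of an annotated transcript (incomplete splice match), as a new combination of annotated sites, as holding an unannotated site, or as genomic. Model ends sit on shared positions and are not read ends.

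Counts were summed over all models of an annotated gene. Spike-in RNAs, 1.58% and 1.33% of reads, were left out, as were antisense and intergenic models. Unannotated models were matched by intron chain, and single-exon ones of a gene were pooled. A gene with 20 or more reads in all entered an exact binomial test, two-sided, of its split between the libraries given their totals. Leading transcript shares and cassette exons (internal exons whose flanking sites are also joined directly) with 20 or more reads in each library entered a two-sided Fisher's exact test. The p-values were adjusted over all features after Benjamini and Hochberg and judged at 0.05, and they cover counting error only. Log2 ratios set replicate 2 over replicate 1, each as CPM + 1. Both tests were tested on simulated data that held counting error only, and not on counts with variation between libraries.

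Python 3.11.15, SciPy 1.17.1, edgeR 4.0.16 (TMM) and DESeq2 1.42.0 (size factors) were used. The genes, gene lists and exons were chosen with earlier results of these data known. The naming rule took all 6 genes with transcripts at 5% or more of their reads, exons with 10 or more informative reads in each library, all listed receptors, and the 4 most abundant genes of each other list. Named outside it, after their values were seen, were Ccl17, the reads of Cx3cr1 by place and the lower genes of the lists. Alternatives changed the models counted, the scaling, the read minimum, the pseudocount and the libraries used.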

Additional observations from a re-analysis of the deposited data

Results flagged for a closer look

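Reads beyond the models of the 6 genes carried signal in 2 places, and each is given here as values. Of the 11 reads given to Ccl17, 10 begin with an exon of Cx3cl1, a signal outside the counts of the 6 genes. Replicate 1 held 8 of them and replicate 2 held 2. Antisense models at Sirpa, which are part of no gene count, held 127 reads over both libraries, 48 and 79. Cx3cl1, Il34 and Csf1 had 0 antisense reads in both libraries. The source of these reads was not tested.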

How the results depend on the processing

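No paired analysis was possible because there is only 1 group, with 1 library per replicate number. Under 8 settings of models, scaling and read minimum 0 gene tests of the 6 genes were called, and 0 of their transcript shares under 4 settings and 0 of their exons under 3. The count of genes called over the whole table was 182, and moved to 55 with annotated transcripts only, 78 with models of more than 1 exon only and 325 scaled to all mouse reads. Calls of leading transcript shares went from 10 to 1 with annotated transcripts only, where fewer genes were tested. Calls of cassette exons went from 0 to 4 on leaving out the incomplete matches and genomic models, none in the 6 genes; the cause was not tested. The summed level of the 6 genes was 1873 CPM, and moved to 1676 with annotated transcripts only, 1569 with models of more than 1 exon only and 1613 scaled to all mouse reads. Without either replicate it ran from 1849 to 1898 CPM. The long tail of Cd47 ran from 81.9% to 84.8% without either replicate, and was 94.3% with annotated transcripts only. Il34 fell from 59.2 to 5.81 CPM with annotated transcripts only, since few of its reads match a whole annotated transcript, while TMM and DESeq2 scaling gave 59.4 and 59.5 CPM. Depth limits Csf1, with 11 reads, and the shares of Il34, whose intervals are wide.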
